A study of Mus musculus with 6 samples.

Results

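CTCF regions that touch coding exons away from the ends of genes were examined in mouse embryonic stem cells (ESCs) carrying either of 2 forms of CTCF. A region counted as a member when it overlapped annotated coding sequence, lay more than 1 kb from every annotated transcript start and lay more than 1 kb from the 3′ end of every protein-coding gene. Of the 57662 regions in the series, 2560 met this rule, all on chromosomes 1 to 19 and X, and these are called coding-exon regions or members here. The rule used no score and no call, only the position and extent of regions. Each region is a merged peak interval, and a wider one overlaps coding sequence more readily. Members were 543 bp wide at the median, against 452 bp over all regions.

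The cells were a CTCF-EGFP-AID line, in which the cell's own CTCF carries a fluorescent tag and a degron and was removed with auxin, and this removal is shared by both genotypes. No gene expression was measured in these libraries, so the cell type was taken from the labels. WT_CTCF cells expressed an introduced wild-type CTCF, and MUT_CTCF cells expressed an introduced CTCF in which a single threonine was changed to alanine, a position that then cannot carry O-GlcNAc, a single sugar attached to serine or threonine. Chromatin bound by CTCF was recovered with an anti-CTCF antibody, with Drosophila chromatin added as a spike-in. Each genotype had 2 ChIP libraries, described as biological replicates, and 1 input library, not analysed here. Each genotype was a picked clone whose introduced CTCF matched the level of the endogenous protein, so genotype and clone cannot be told apart.

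CTCF is a DNA-binding protein with a row of zinc fingers that reads a long sequence motif, and it is known for halting the loop extrusion that folds chromosomes and for insulating genes from one another. Most of its sites lie between genes or in introns. Inside a coding exon the same letters also spell amino acids, so a site there is read both by CTCF and, after transcription, by the ribosome. Whether a region that touches a coding exon is bound on the exon or beside it depends on where the peak summit, the position of greatest signal, falls.

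The best motif match in a region, which need not lie under the summit, shows the variety of these sites. For each gene below, 30 bases of the mm9 reference are printed 5′ to 3′ on the strand of the motif, with the 13 letters of the best match to the core CTCF motif in capitals. The first 4 belong to members among those with the highest WT_CTCF scores, and in all 4 the match lies off the coding sequence, beside the touched exon.
Fam129b, chr2:32768108-32768137, plus strand: gtgagacgCCAGCAGGCGGCAgtatttgct
Dnahc8, chr17:30790497-30790526, minus strand: gagtctggCCTCCAGGGGGCAtatagatgt
Pink1, chr4:137875625-137875654, plus strand: aaggcttaCCACTAGGTGGCGctacaccca
Twf2, chr9:106114452-106114481, minus strand: cactgcgcCCAGTAGGGGGCGcagcgaagc
The next 6 lie wholly on coding sequence. Cul9 and Otop2 had the highest ratios of MUT_CTCF to WT_CTCF score among members of at least median signal, and Mon1a, Klf1, Adcy5 and Evx2 carry the strongest peaks found in both WT_CTCF lists and neither MUT_CTCF list.
Cul9, chr17:46662717-46662746, plus strand: acactcggCCACCAGGTGGCGcagctcaga
Otop2, chr11:115190835-115190864, plus strand: cccagagaCCTGCAGGGGGCGctcaacctg
Mon1a, chr9:107803885-107803914, plus strand: gcccataaCCAGCTGGTGGCGctcgtgcgc
Klf1, chr8:87427144-87427173, minus strand: ccgtgggaCCAGCAGAAGGCGccgcgagcc
Adcy5, chr16:35156567-35156596, minus strand: cgctgccgCCCGCAGGGGGCGcccgggtgc
Evx2, chr2:74493574-74493603, minus strand: tcctgctgCCGCTAGGGGGCGccccggggg
Pink1, Twf2 and Cul9 match the motif with no mismatch, and the other 7 with 1. The letters are those of the reference genome and were not read from the cells.

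Most members were bound beside the exon they touch and not on it. The summit lay on coding sequence in 723 of 2560 members (28.2%) and off it in the other 1837, at a median distance of 133 bp, with 328 of these within 50 bp. A member was 543 bp wide at the median and held 112 bp of coding sequence, 21.5% of its width. In 448 members the coding part was under 50 bp, and 110 members were coding throughout. The label of internal exons held for most members: of the 2497 whose touched exon belongs to the longest coding transcript of its gene, 2191 (87.7%) touched an internal coding exon, 217 the last, 68 the first and 21 the only one.

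**Figure D1:**
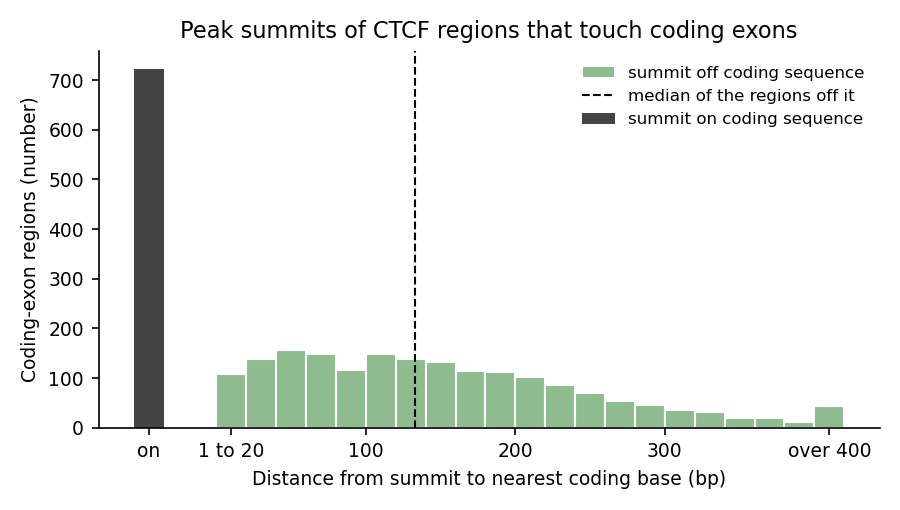
Distance in bp from the peak summit to the nearest coding base for the 2560 coding-exon regions, in bins of 20 bp, with regions whose summit is on coding sequence as a separate bar on the left and the dashed line at the median of the others. The bar of 723 regions on coding sequence is the tallest, and the 1837 others spread around a median of 133 bp.

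The members belonged to 2178 genes. A single member was found in 1876 genes, 2 in 248 genes and 3 or more in 54, and 4 members touched the coding exons of 2 genes at once. The touched exon was 140 bp long at the median, with quartiles of 102 and 194 bp. It was 180 bp at the median where the summit lay on coding sequence and 128 bp where it lay off it.

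A match to the core motif was found in 1527 members (59.6%), against 5.76% of windows of the same width placed 5 kb to either side, and in 63.7% of the 20181 regions elsewhere in protein-coding genes under the same distance rule. Members matched with no mismatch in 412 cases (16.1%), and regions elsewhere in gene bodies in 11.5%. That share was 8.99% in members with the summit on coding sequence and 18.9% in those with it off. Members were also wider, at 543 bp against 426 bp at the median. The match lay wholly on coding sequence in 286 members, across an exon edge in 54 and off coding sequence in 1187. Summits lay close to the match in the 1229 members with a match that were called in all libraries. Their median distance from summit to match was 10 bp in both WT_CTCF libraries and 11 bp in both MUT_CTCF libraries. Between 94.1% and 95.8% of these summits lay within 50 bp. Among members called in all libraries, the summit shifted by 8.5 bp at the median between the genotypes and by 7 bp between replicates of either genotype.

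Seen from the genome, coding sequence was as rich in the motif as the rest of the gene. The 23.7 Mb of coding sequence held 1506 matches with up to 1 mismatch, 63.5 per Mb, against 61.7 per Mb in other parts of protein-coding genes and 48.0 per Mb outside them. Of the coding matches 353 (23.4%) lay in a CTCF region of this series, against 28.6% in other parts of genes and 24.2% outside them. Summits per Mb were 32.9 on coding sequence, 25.8 in other parts of genes and 17.7 outside. These figures leave out sequence within 1 kb of a transcript start or of the 3′ end of a protein-coding gene. Matches near one another share regions and base composition, so the figures are given without a test.

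The direction of the motif relative to the gene was uneven in coding sequence. Under the same distance rule, a reading frame could be assigned to 1436 coding matches, of which 625 ran with the gene and 811 against it. Matches on the gene's own strand started at codon position 1 in 275 cases, at position 3 in 263 and at position 2 in only 87. Matches on the opposite strand were spread over positions 1, 2 and 3 with 362, 219 and 230 cases, counting the position of the first coding base that the match covers. A CTCF region covered 22.7% of the matches that ran with the gene and 23.9% of those that ran against it. By position, coverage ran from 20.4% (47 of 230) at position 3 to 27.3% (99 of 362) at position 1, both against the gene. It was 25.3% (22 of 87) at position 2 on the gene's strand. Coverage differed more by match quality: 63.7% of the 102 coding matches with no mismatch lay in a CTCF region, against 20.3% of the 1334 with 1 mismatch. Among the members, 122 coding matches ran with the gene and 163 against it. Over all members with a motif, 47.7% of matches were on the strand of the gene, against 53.3% of 12721 matches in regions elsewhere in gene bodies.

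Fewer members were called in MUT_CTCF than in WT_CTCF. A member was called in a library when a peak of that library's list overlapped it by at least 1 bp. The WT_CTCF libraries called 2370 and 2459 members (92.6% and 96.1%), and the MUT_CTCF libraries called 1857 and 1812 (72.5% and 70.8%). Over all regions the shares were 86.3% and 93.4% in WT_CTCF and 58.3% and 56.2% in MUT_CTCF, so the fall in calls was shared by the whole list. The groups did not overlap, with means of 2414.5 ± 62.9 (SD, n = 2) and 1834.5 ± 31.8 (SD, n = 2), a difference of -580 members. An exact two-sided permutation test gave p = 0.333, the smallest value that 2 libraries against 2 can give, so no comparison of single values in this design can pass 0.05. Peaks on members were also narrower, with median widths of 492 and 517 bp in WT_CTCF and 416 and 405 bp in MUT_CTCF (exact p = 0.333). These medians cover the members called in each library, which are not the same members. Peak widths over all regions were not compared.

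A peak score is the peak caller's value, made on tracks that had been multiplied by spike-in factors, and its definition was not stated. It is not a read count. How deeply each library was sequenced is not known from the files, and a missing call does not show that CTCF was absent. Library scale and genotype cannot be told apart in these lists. The spike-in scaled read counts that the authors compared per region are a separate measure and were not used for any comparison here. From them the study reported a significant global gain in binding of the mutant CTCF, and its immunoblots showed more of it on chromatin. It also reported greater chromatin accessibility at the peaks that gained binding, and like results in additional clones of both genotypes. The reported gain in binding is opposite in direction to the scores and calls given here, and the reason for the difference was not tested. Lower scores here are therefore not read as lower binding. The replicates of a genotype came from the same clone, so that a p-value measures the spread between such libraries.

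By pattern, 1738 members (67.9%) were called in all 4 libraries, against 52.6% of all regions. Another 373 (14.6%) were called in both WT_CTCF libraries and no MUT_CTCF library, against 19.5% of all regions. Only 3 members, of Itgal, Sema4f and Ctcf, were called in both MUT_CTCF libraries and no WT_CTCF library, a pattern that 0.0278% of all regions showed. The remaining 446 had other patterns. The 373 regions were weak for the most part: their mean WT_CTCF score ranged from 24 to 971.5 with a median of 102, whereas the median was 654 over members with a call in every library.

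Scores of the 1738 members called in all libraries were lower in MUT_CTCF. The median score was 627 and 672 in the WT_CTCF libraries and 303 in each MUT_CTCF library. The groups did not overlap, with means of 649.5 ± 31.8 (SD, n = 2) and 303 ± 0 (SD, n = 2), a difference of -346.5 (exact two-sided permutation test, p = 0.333). Over all members called in a given library, which includes the weaker ones, the medians averaged 446 and 287, a difference of -159. Per region, the ratio of the mean MUT_CTCF score to the mean WT_CTCF score was 0.459 at the median, with quartiles of 0.366 and 0.572. Both MUT_CTCF scores were below both WT_CTCF scores in 1653 of the 1738, where 96.2% of all regions called in all libraries did the same, and above both in 7, where 0.218% of all regions did.

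Most members, like most regions, scored lower in MUT_CTCF in the fit across regions. With limma on log2 scores of the 30312 regions called in all libraries, 90.8% of all regions were lower in MUT_CTCF at an adjusted p below 0.05 (Benjamini-Hochberg over all regions tested) and 0.0396% were higher. Of the 1738 members 1546 (89.0%) were lower and 3 were higher, a share close to that of all regions. The median log2 difference was -1.13 over members and -1.18 over all regions. After the scores of each library were centred on its median, which removes this shared shift, 8.49% of all regions were lower and 10.9% higher, and of the members 129 (7.42%) were lower and 267 (15.4%) higher, a difference from all regions that was not tested. The direction of most members was thus that of the whole list, and the count of lower members rested on the replicates of WT_CTCF: it was 723 without WT_CTCF replicate 1 and 0 without WT_CTCF replicate 2, where limma still gave 1043 lower members at an unadjusted p below 0.05 but none after adjustment. The median log2 difference over members stayed near its value, at -1.18 and -1.06 in these 2 fits.

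**Figure D2:**
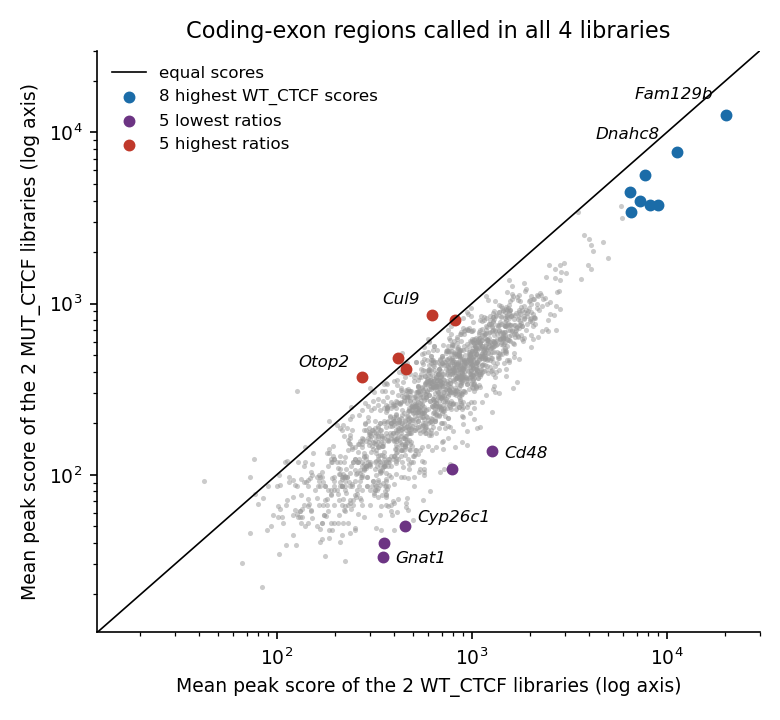
Mean peak score of the 2 MUT_CTCF libraries against that of the 2 WT_CTCF libraries, both on log axes, for the 1738 coding-exon regions called in all 4 libraries (grey), with the named regions coloured by the rule that chose them. Nearly all points lie below the line of equal scores, Fam129b is the highest on both axes, and Cul9 and Otop2 lie above the line.

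Fam129b and Dnahc8 held the strongest coding-exon regions. The region of Fam129b (chr2:32767624-32768628), which covers all 168 bp of coding exon 5 of 14, scored 19592 and 20526 in WT_CTCF and 12629 and 12557 in MUT_CTCF. Its summit lay 32 bp outside the exon. The region of Dnahc8, an axonemal dynein heavy chain of cilia and sperm tails, at coding exon 7 of 92 (chr17:30789710-30790599), scored 10480 and 11992 against 7765 and 7644. Both fell less than most members, with MUT_CTCF scores at 0.628 and 0.686 times those of WT_CTCF.

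The next 5 described here ranged in mean WT_CTCF score from 6504.5 to 8218. Pink1, a kinase that marks damaged mitochondria, scored 7596 and 7797 against 5400 and 5909. Its ratio of 0.735 was the highest of the 7 regions with Fam129b and Dnahc8 included, and that of Pcyox1l, 0.460, was the lowest.

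Pcyox1l scored 7683 and 8753 against 3888 and 3668, and Twf2, an actin-binding twinfilin, 7184 and 7477 against 3944 and 4008. Ift80, a subunit of the intraflagellar transport machinery of cilia, scored 6239 and 6816 against 3447 and 3406, and no motif match was found in its region. Irg1, the enzyme that makes itaconate in activated macrophages, scored 6564 and 6445 against 4718 and 4249, also with no match. All 7 had summits off coding sequence, all 7 were lower in MUT_CTCF without overlap, and limma called all 7 lower, with adjusted p from 1.3e-05 to 0.00069. After centring Pcyox1l was not called and the other 6 were called higher, so that those 6 lost a smaller part of their score than the typical region did.

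The largest falls among members of at least median signal were in Gnat1, Cd48, Cyp26c1, Pcx and Synpo. These and the next group were chosen for their ratio, so their values describe the extremes. At Gnat1, the rod transducin of the retina, the region at the last of 8 coding exons (chr9:107578092-107578748) scored 286 and 414 in WT_CTCF and 29 and 37 in MUT_CTCF, 10.6-fold lower by the means. The log2 difference was -3.39 ± 0.38 (SE) with a limma adjusted p of 3.6e-05. At Cd48, a cell-surface protein of lymphocytes, scores were 1141 and 1392 against 159 and 115, 9.24-fold lower.

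Cyp26c1, an enzyme that breaks down retinoic acid, scored 481 and 424 against 81 and 19 at coding exon 3 of 6 (chr19:37761447-37761855), so its MUT_CTCF replicates themselves differed widely. Pcx, pyruvate carboxylase, scored 343 and 366 against 35 and 45 at coding exon 8 of 20. Synpo, an actin-associated protein of kidney podocytes and dendritic spines, scored 910 and 683 against 109 and 107. Summits of Cyp26c1, Pcx and Synpo were on coding sequence, and none of the 5 regions held a motif match. All 5 stayed lower after centring, with adjusted p of 0.00016 or less.

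Against this fall a few members kept or raised their score. The region of Cul9, a cullin of ubiquitin ligases, lies on the 228 bp coding exon 13 of 41 (chr17:46662430-46662998) with its summit and the motif printed above on coding sequence. It scored 584 and 671 in WT_CTCF and 769 and 953 in MUT_CTCF, 1.37 times higher by the means. Otop2, a proton channel of the otopetrin family, scored 235 and 315 against 358 and 386 in a region wholly inside its 878 bp coding exon 5 of 6 (chr11:115190590-115191105). The groups did not overlap in either gene, and the limma adjusted p was 0.033 for Cul9 and 0.11 for Otop2.

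Wnt9a, a secreted Wnt ligand, scored 409 and 430 against 523 and 440 (adjusted p = 0.38). Slc48a1, a heme transporter, scored 822 and 823 against 786 and 818, and Pnpla1, a lipid enzyme of the skin, 446 and 469 against 444 and 386. The last 3 were not called, and their adjusted p values do not show equal scores. All 5 were called higher after centring.

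The 3 members that limma called higher were those of Prkd2, Cul9 and Chd5, of which Prkd2 and Chd5 are named here after their values were seen. Prkd2, protein kinase D2, scored 149 and 104 in WT_CTCF and 344 and 276 in MUT_CTCF at coding exon 4 of 18 (chr7:17434011-17434338), a log2 difference of 1.31 ± 0.31 (SE) with an adjusted p of 0.0025. Chd5, a chromodomain chromatin remodeller, scored 30 and 55 against 73 and 112 at coding exon 40 of 41, with a log2 difference of 1.15 ± 0.48 and an adjusted p of 0.040. Prkd2 alone passed at an adjusted p below 0.01. Without 1 library the count was 0, or 1 without MUT_CTCF replicate 2. Of the 7 members whose MUT_CTCF scores both exceeded both WT_CTCF scores, 5 had the summit on coding sequence (Cul9, Myt1l, Otop2, Pcdh17 and Prkd2), a feature of 359 of the 1738 members compared.

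Peaks that were missing from both MUT_CTCF lists included some of fair strength, and the strongest lay in G+C-rich regions. Mon1a, a protein of vesicle traffic, scored 873 and 1070 in WT_CTCF on its 766 bp coding exon 3 of 5 (chr9:107803610-107804340). Klf1, a transcription factor of red blood cell formation, scored 944 and 883 on its 814 bp exon (chr8:87426845-87427390). Adcy5, an adenylyl cyclase, scored 742 and 1045 on its 1137 bp first coding exon (chr16:35156386-35156882).

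Evx2, a homeobox gene beside the Hoxd cluster, scored 847 and 813 on its last coding exon (chr2:74493387-74494127). Marcks, a membrane-bound substrate of protein kinase C, scored 409 and 547 in a region (chr10:36856714-36857150) with 28 bp of coding sequence and the summit 212 bp away. G+C content was 60.6% in Mon1a and from 69.2% to 73.5% in the other 4, against a median of 49.7% over members. All 5 held a motif with 1 mismatch.

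Calls in MUT_CTCF were fewer in the most G+C-rich members. Up to 55% G+C the shares showed no fall, at 75.2% and 74.4% of members with up to 40%, and 76.2% and 74.6% of those with 50% to 55%, and they were 63.5% and 61.2% from 55% to 60%. Of the 114 members with G+C over 60%, 82.5% and 87.7% were called in WT_CTCF and 32.5% and 28.1% in MUT_CTCF. Of the 2446 others, 93.1% and 96.4% were called in WT_CTCF and 74.4% and 72.8% in MUT_CTCF. The gap was also present among stronger peaks. Among members called in both WT_CTCF libraries with a mean score of 238 or more, 63.2% and 60.5% of the 38 G+C-rich ones were called in MUT_CTCF, against 98.2% and 97.8% of the 1581 others. The G+C-rich ones had a lower median WT_CTCF score within this range, 528 against 705.5. The split was chosen after the values were seen. Regions outside the set fell in the same way, with 35.6% and 34.7% of 1056 G+C-rich ones called in MUT_CTCF against 58.0% and 55.9% of the rest, so other regions also had fewer calls where G+C was high.

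**Figure D3:**
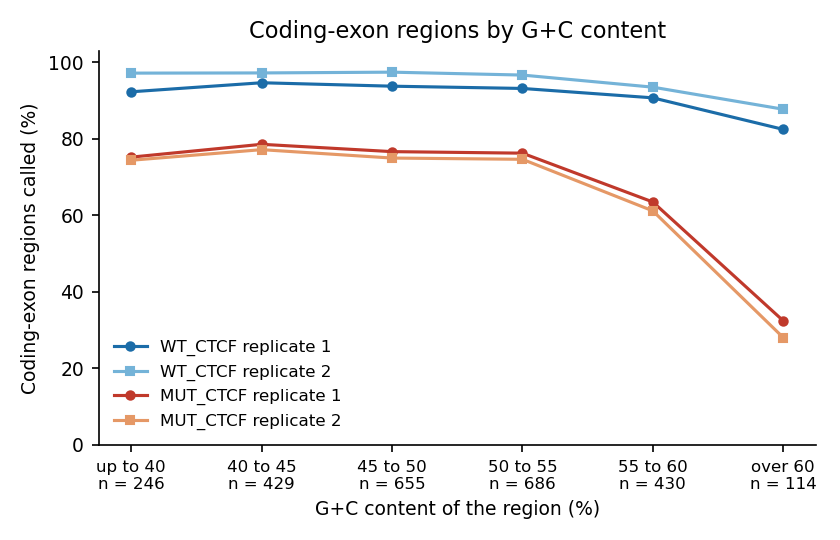
Percent of coding-exon regions called in each of the 4 libraries by G+C content of the region, with the number of regions under each class. The WT_CTCF lines stay between 82.5% and 97.4%, and the MUT_CTCF lines fall from 78.6% and 77.2% in the class of 40% to 45% to 32.5% and 28.1% in the class over 60%.

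The 3 members seen in MUT_CTCF alone were weak. Itgal, an integrin of lymphocytes, scored 57 and 76, and Sema4f, a semaphorin, scored 57 and 47. The third lay in the gene of CTCF itself. It covered 479 bp (chr8:108187828-108188306), all of it inside the 781 bp first coding exon of Ctcf, and scored 26 and 22 in the MUT_CTCF libraries, near the lowest score of 13 in the lists. The 2 other regions called in Ctcf lay off coding sequence within 1 kb of a transcript start or gene end, and scored 239 and 265 or 147 and 205 in WT_CTCF. The first of these was not called in MUT_CTCF, and the second scored 141 and 99 there. Cells of both genotypes carry an introduced Ctcf coding sequence, from which reads would align to these exons. The part of that sequence in the peak, which was called in MUT_CTCF alone, was not tested.

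Members with the summit on coding sequence were weaker than those with the summit off it. They were called at 85.5% and 92.5% in WT_CTCF and at 55.6% and 53.4% in MUT_CTCF, and members with the summit off it at 95.4% and 97.4% and at 79.2% and 77.6%. The gap between the 2 kinds was -9.90 and -4.91 percentage points in WT_CTCF and -23.6 and -24.2 in MUT_CTCF, without overlap (exact p = 0.333). Where called in all libraries, median scores were 471, 488, 221 and 200 with the summit on coding sequence, in the order WT_CTCF 1, WT_CTCF 2, MUT_CTCF 1 and MUT_CTCF 2, and 673, 723, 338 and 330 with the summit off it. The ratio of MUT_CTCF to WT_CTCF score was alike in both, with medians of 0.460 and 0.459. A motif was found in 45.2% of the first kind and 65.3% of the second. Set beside members of a like WT_CTCF score, the gap in MUT_CTCF calls averaged -2.41 and -2.99 points over 5 classes of score. Members with the summit on coding sequence were close in strength to regions elsewhere in gene bodies. The median WT_CTCF score where both WT_CTCF libraries called the region was 289.5 and 283.5 in these 2 sets, and 566.5 with the summit off coding sequence. Median widths were 429, 426 and 575 bp in the same order.

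The share of called members with the summit on coding sequence was lower in MUT_CTCF. It was 25.9% and 27.3% in WT_CTCF and 21.2% and 20.1% in MUT_CTCF, a difference of -5.94 percentage points without overlap (exact p = 0.333). Among members called in all libraries the difference was -0.60 points (exact p = 0.667). In members called in all libraries the position itself was stable: the summit lay on coding sequence in all 4 libraries in 300, in none in 1345 and in some in 93.

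Members with a better motif match were stronger. Among the 412 members with an exact match, 99.3% and 100% were called in WT_CTCF and 94.9% and 93.9% in MUT_CTCF. With 1 mismatch (1115 members) the shares were 96.5%, 97.8%, 80.6% and 78.7%, and with no match (1033 members) 85.7%, 92.6%, 54.9% and 53.0%. Median scores of those called in all libraries fell in the same order, from 834.5 and 897 in WT_CTCF with an exact match to 515 and 537 with no match. The score ratio moved little, from 0.479 to 0.461 and 0.439. Where the motif held a CpG, the dinucleotide that DNA methylation marks, 87.4% and 84.5% of 627 members were called in MUT_CTCF, and where it held none 82.4% and 81.6% of 900.

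Compared with the 55084 other regions, members were called more often, and the gap was wider in MUT_CTCF. It was 6.53 and 2.74 percentage points in WT_CTCF and 14.9 and 15.3 in MUT_CTCF, a difference of 10.5 points without overlap (exact p = 0.333). Members also scored higher, by 0.14 and 0.13 on the log2 scale in WT_CTCF and by 0.20 and 0.28 in MUT_CTCF. Regions elsewhere in gene bodies were called at 85.4% and 92.8% in WT_CTCF and at 55.2% and 53.2% in MUT_CTCF. Members with the summit on coding sequence had nearly these shares, at 85.5% and 92.5% in WT_CTCF and 55.6% and 53.4% in MUT_CTCF. The excess of members thus lay in those with the summit off it, at 79.2% and 77.6% in MUT_CTCF. Coding regions within 1 kb of a transcript start or gene end, 1951 in number, were called at 66.2% and 65.0% in MUT_CTCF.

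Strength moved with this gap. Within 5 classes of mean WT_CTCF score, set over all regions called in both WT_CTCF libraries, the gap averaged 1.72 and 1.80 points in the 2 MUT_CTCF libraries. In the weakest class, with scores up to 114, 18.6% and 16.5% of 291 members were called, against 13.8% and 10.4% of other regions. In the third class, from 238 to 473.5, the shares were 92.5% and 90.9% against 91.4% and 89.9%, and in the strongest class 99.6% in both libraries against 99.9% and 99.8%. Counting only peaks with a score of 250 or more, the median over all lists, turned the difference between genotypes to -2.51 points, with members ahead by 16.1 points in WT_CTCF and 13.6 in MUT_CTCF.

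**Figure D4:**
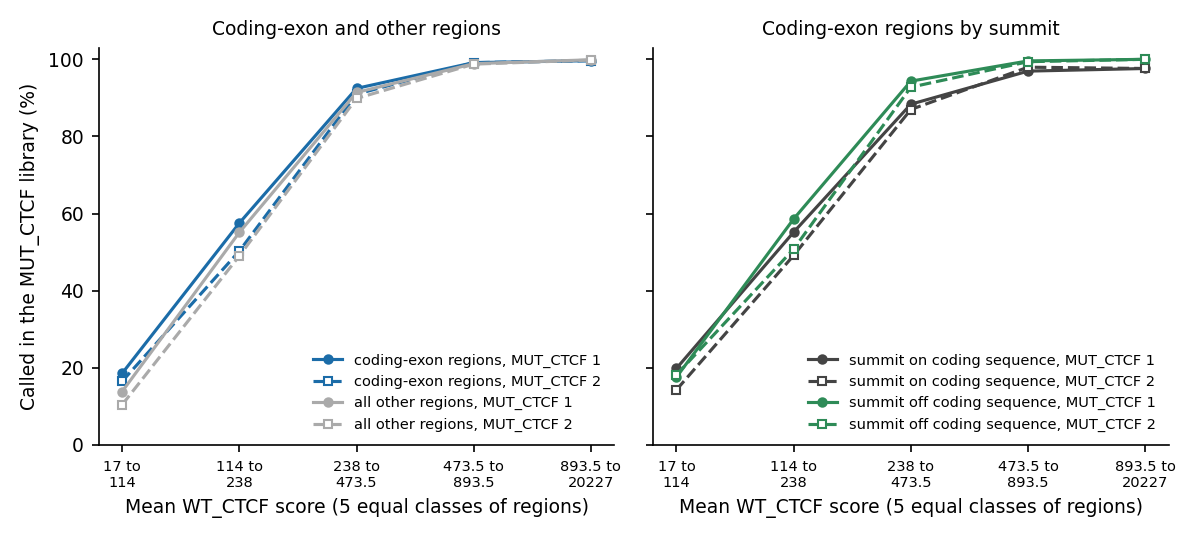
Percent of regions called in each MUT_CTCF library across 5 equal classes of the mean WT_CTCF score, for regions called in both WT_CTCF libraries, with coding-exon and other regions on the left and coding-exon regions by summit position on the right. On the left the lines nearly coincide from the second class on, and on the right the regions with the summit on coding sequence are lower in the third class, at 88.4% and 87.0% against 94.3% and 92.8%.

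Long genes with many exons held several members, and Dnahc8 held 11, more than any other gene. The strongest was that at exon 7, given above. The weakest, at exon 17, scored 37 and 68 in WT_CTCF and was not called in MUT_CTCF, and neither was that at exon 44, which scored 125 and 177. The other 9 were called in all libraries and had lower scores in MUT_CTCF, with no overlap between the genotypes in any of the 9. Their ratios differed: that at exon 49 scored 1135 and 1166 against 816 and 856, a ratio of 0.727, and that at exon 25 scored 471 and 472 against 152 and 96, a ratio of 0.263. All 11 summits lay off coding sequence, at 57 to 381 bp.

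**Figure D5:**
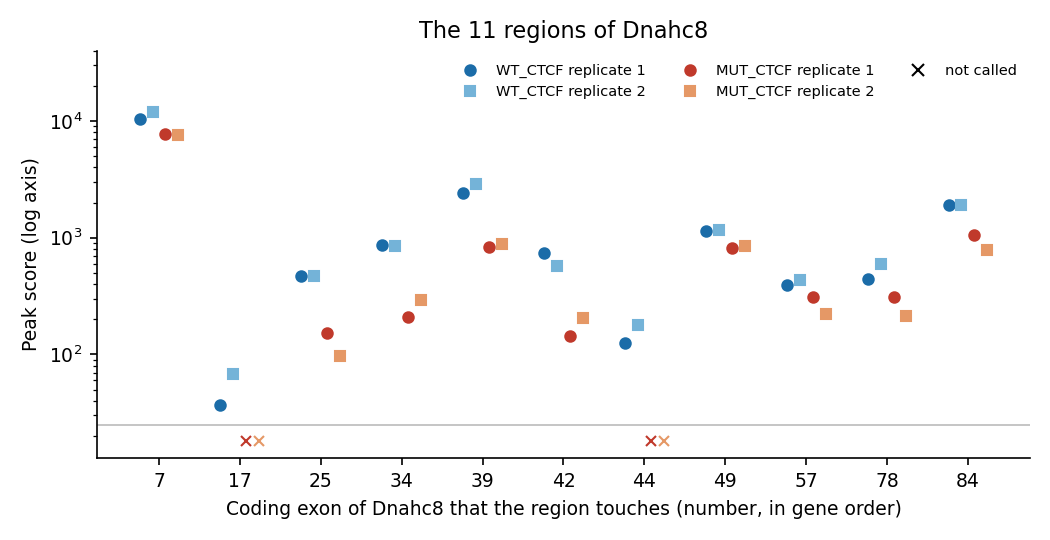
Peak score on a log axis of the 11 coding-exon regions of Dnahc8 in each of the 4 libraries, in order of the coding exon touched, with crosses under the grey line where a library had no call. In each region called in all libraries both MUT_CTCF points lie below both WT_CTCF points, and the regions at exons 17 and 44 have no call in MUT_CTCF.

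Fry, Kif13a and Lrp1 followed by rule with 5 members each, as many as Spnb4 and Ttn held. In Fry, a large scaffold protein, the region at the last coding exon was the strongest with scores of 1242 and 1260 against 428 and 534, and that at exon 38 fell most, from 793 and 1011 to 200 and 195. In Kif13a, a kinesin motor, the region at exon 14 fell to a ratio of 0.290 (mean scores of 2199.5 in WT_CTCF and 638.5 in MUT_CTCF), while that at exon 20, whose summit and motif were on coding sequence, scored 882 and 794 against 689 and 579, a ratio of 0.757. In Lrp1, an endocytic receptor of the LDL receptor family, the region at exon 55 scored 2250 and 2709 against 1791 and 1582, and that at exon 35 scored 1119 and 1102 against 344 and 429. In both Kif13a and Dnahc8 the ratio thus differed between exons of the same gene.

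Gene families were described by lists of symbols, chosen without regard to exon number. Counts of their members called in all libraries stand beside 67.9% of all members and 52.6% of all regions. Myosins, kinesins and dyneins, the motors of the cytoskeleton, held 70 members in 36 genes. Of these 47 were called in all libraries, and limma called 44 lower, none higher and 3 not at all. Dnahc10, an axonemal dynein, scored 3668 and 3830 against 2503 and 2564. Solute carriers held 74 members in 68 genes, of which 53 were called in all libraries and 49 were lower. Slc13a2, a dicarboxylate transporter, scored 2661 and 2837 in WT_CTCF and 1162 in both MUT_CTCF libraries.

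Ion channel genes held 44 members, of which 34 were called in all libraries. Limma called 28 lower and none higher, with a median ratio of 0.571. After centring 11 of the 34 were higher, beside 15.4% of members and 10.9% of all regions called in all libraries. The other lists ran from 0 of 7 in zinc finger genes to 3 of 8 in plexins, semaphorins, ephrins and their receptors. Kcnn1, a calcium-activated potassium channel, scored 1490 and 1623 against 1528 and 1210 with overlap between the groups (limma adjusted p = 0.22), and Cacna1a, a voltage-gated calcium channel of neurons, 1515 and 1626 against 953 and 892. Tyrosine kinases and phosphatases held 22 members with 15 of 17 lower, among them Ptprn at 1749 and 1972 against 695 and 561.

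Genes of the extracellular matrix and of cell contact gave smaller counts. Collagens held 21 members, with 9 of the 14 called in all libraries lower and 5 not called by limma. Col16a1, whose summit and motif were on coding sequence, scored 2251 and 2188 against 1022 and 818, and Col4a2, a basement-membrane collagen, 1210 and 1034 against 769 and 919. Laminins and other basement-membrane genes held 12 members, of which 6 were called in both WT_CTCF libraries only, beside 14.6% of all members and 19.5% of all regions, and 4 of the 5 called in all libraries were lower. The cadherin superfamily held 20 members, and 14 of them had the summit on coding sequence, beside 28.2% of all members. Of the 10 cadherin members called in all libraries 7 were lower, and Cdh3, P-cadherin, scored 3856 and 4301 against 1545 and 1658.

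Signalling and regulatory genes completed the lists. Plexins, semaphorins, ephrins and their receptors held 13 members with 7 of 8 lower, and Sema3b, a secreted guidance cue, fell from 1468 and 1526 to 395 and 356. Notch, Hedgehog, Wnt and LDL-receptor family genes held 16 members with 12 of 14 lower. Gli1, the transcription factor of Hedgehog signalling, scored 1430 and 1431 against 518 and 503. Chromatin regulators held 21 members with 11 of 13 lower and that of Chd5 higher, and Hdac11, a histone deacetylase, scored 723 and 919 against 458 and 400. Zinc finger genes of the Zfp series held 15 members, and all 7 called in all libraries were lower, among them Zfp219 at 2694 and 2967 against 1363 and 1373. The share of lower members was smallest in collagens, at 9 of 14, and in cadherins, at 7 of 10, beside 90.8% of all regions, and differences between lists were not tested.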

How the data were processed

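The 6 samples were 4 CTCF ChIP libraries and 2 inputs, grouped by their titles, and inputs were not used here. The submitters' processing notes name Trim Galore 0.4.4, Bowtie2 2.3.4.1, MACS2 2.1.1.20160309, DESeq2 1.38.0 and deepTools 3.1.1. The authors aligned reads to mm9, removed multiply aligned and duplicate reads, multiplied tracks by factors from Drosophila reads and called peaks per library with MACS2. The peak score is deposited in each list, and the authors' peak cutoff is not given in the sources used here. The authors merged the peaks and counted reads over them, and the deposited table gives a mean signal per region over the 4 libraries, used here only as the authors' mean to set a minimum for named regions. The authors ran DESeq2 on the counts. Its 5 columns of fold change, standard error, statistic, p-value and adjusted p-value are the authors' comparison and were not used.

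All 57662 regions equalled merged peaks. Each region took the highest-scoring overlapping peak per library (at least 1 bp), and its summit was the mean of the WT_CTCF summits, or of the MUT_CTCF summits where no WT_CTCF library called it. Exons came from GENCODE vM1 on the same build. The core CTCF motif (13 letters, both strands, up to 1 mismatch) was searched in mm9, and an exact match was preferred. limma 3.58.1 in R 4.3.3, with a variance trend, compared log2 scores over all 30312 regions called in every library. The other tests were exact permutation tests over libraries, and both were tested on simulated or constructed data. Tables and permutation tests were made in Python 3.11.15 (pandas 2.3.3, with numpy 2.4.6; scipy 1.17.1) and plots with matplotlib 3.10.9. Counting error could not be given, since read depth is unknown here.

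The members, gene lists and tests were chosen with earlier results of these data known. Named regions touch 1 protein-coding gene and are the 8 highest mean WT_CTCF scores among those called in all libraries, the 5 lowest and 5 highest score ratios with no overlap between genotypes and a mean signal of at least the members' median of 161.25, the 5 highest scores among those called in both WT_CTCF libraries only, those called in both MUT_CTCF libraries only, all regions of the 4 genes with the most members, and the 2 highest scores per gene list. One region that this rule names is not reported here. Alternatives were leaving out each library, a replicate block, a distance of 2 kb, at least 50 bp of coding sequence, 50% of the peak in the region, stricter scores, centring, another call filter, pseudocounts of 1 and 100, no variance trend and an adjusted p below 0.01.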

Additional observations from a re-analysis of the deposited data

How the results depend on the processing

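Of 88 alternatives, 76 kept the direction and, for counts, stayed within 1.5 times the value given. Some of the 76 could not have changed. A replicate block leaves the difference between genotypes in a single value as it is. The rule on the share of a peak inside the region also changed nothing, since every region is a merged peak and holds its peaks whole. For single values these alternatives are therefore no check. Counting only peaks with a score of 250 or more reversed the difference between genotypes in the called share of members minus that of other regions, to -2.51 percentage points. Within 5 classes of WT_CTCF score, added after the data were seen, that gap was 1.76 points in MUT_CTCF and the gap between summits on and off coding sequence -2.70 points. Centring the scores left 129 members lower and made 267 higher, and at an adjusted p below 0.01 only 1 was higher. The difference in median score was -159 over all members called in a library and -502.5 with the stricter score, and that in summits on coding sequence was -0.60 points over members called in all libraries. Leaving out 1 library gave 0 to 1282 lower members (0 without WT_CTCF replicate 2, where limma called 1043 lower at an unadjusted p below 0.05, and 723 without WT_CTCF replicate 1) and 0 to 1 higher (1 to 3 at an unadjusted p below 0.05); a genotype left with 1 library was assumed to vary like the other, and such a fit rests on the spread between 2 libraries.

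Replicate numbers were shared between genotypes, but deviations of libraries with the same number did not correlate over the regions called in every library (r = -0.0032, members -0.059), so the numbers were not taken as pairs. A replicate block in limma gave 1568 lower and 3 higher members. For single values the exact sign-flip test over 2 pairs cannot go below 0.5, with the same differences of -580 called members, -346.5 in median score, -94 bp in peak width, 10.5 points in called share, 0.11 in log2 score, -5.94 points in summits on coding sequence and -16.5 points between summits on and off it. The unknown depth of the libraries and the undefined score limit all of these values.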

Other observations

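Members on long coding exons differed from the rest in their calls. Of the 207 members whose touched exon was over 500 bp, 84.1% and 91.8% were called in WT_CTCF and 47.3% and 48.3% in MUT_CTCF, against 93.2%, 96.5%, 75.2% and 73.2% of the 2290 on shorter exons. G+C content was 55.6% at the median on long exons and 49.4% on the others, and a motif match was found in 40.6% and 61.6%. The 89 members on a first coding exon, which include the 21 on an only coding exon, had 85.4% and 89.9% called in WT_CTCF and 49.4% and 50.6% in MUT_CTCF. The score ratio of members called in all libraries was 0.461 at the median on long exons and 0.459 on the others. These splits were made after the values were seen and were not tested.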
